A study of Homo sapiens with 14 samples.

Results

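Polyadenylated RNA was sequenced from IMR90, a human fibroblast line established from fetal lung, after treatment with the nucleoside analog 2'3'-dideoxycytidine (ddC) at 20 uM. Some of the genes described here encode proteins of ddC uptake and phosphorylation, and others encode enzymes of natural nucleosides and nucleotides of the same chain. These 10 genes were taken by symbol from the 27142 genes of the count table. They are the nucleoside transporters SLC29A1 and SLC29A2, the kinases DCK, CMPK1, NME1 and NME2, the deaminases CDA and DCTD, the triphosphate hydrolase SAMHD1 and the nucleotidase NT5C. All cells were of wild-type genotype. Untreated cells had 2 libraries and received water as vehicle, and cells exposed for 24, 48, 72 or 96 h had 3 libraries each, which the design text calls biological replicates. The design text gives the untreated cells 0 h, whereas their labels name 4 days, so their time in culture is uncertain. Every comparison with untreated cells rests on the same 2 libraries.

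ddC is a cytidine analog without the 3' hydroxyl group that a growing DNA chain needs. Equilibrative nucleoside transporters of the SLC29 family carry nucleosides across the plasma membrane in either direction. Inside the cell, deoxycytidine kinase (DCK) adds the first phosphate, the UMP/CMP kinase CMPK1 the second, and nucleoside diphosphate kinases such as NME1 and NME2 the last. The resulting ddCTP competes with dCTP at DNA polymerase gamma, the polymerase of mitochondrial DNA (mtDNA). Cytidine deaminase (CDA), dCMP deaminase (DCTD), SAMHD1, which cleaves deoxynucleoside triphosphates, and the cytosolic 5'(3')-deoxyribonucleotidase NT5C act on natural nucleosides and nucleotides of the same chain, and their activity on ddC itself differs from enzyme to enzyme.

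Total counts per library were 9398703 to 12147402, and of the 10 genes 9 passed the filter on low counts. SLC29A2 did not. An antisense index, the reads on scarce genes that overlap an abundant gene on the opposite strand, per 1000 reads of the abundant genes and over 124 such pairs, was 0.428 to 0.529 in 7 libraries and 0.698 to 0.815 in the other 7. The lower set held the untreated and 24 h libraries and 48 h replicates 1 and 2, and the higher set held 48 h replicate 3 and all libraries at 72 and 96 h. Times of 72 and 96 h therefore cannot be told apart from this library set, except through 48 h replicate 3. The nuclear RNA MALAT1 ranged from 52.1 to 409 CPM and varied within groups. Markers of fibroblasts were abundant in every library, with COL1A1, COL1A2, COL3A1, VIM, THY1 and PDGFRB summing to 32480 CPM or more. Those of blood cells summed to at most 60.8 CPM, of endothelium to at most 46.1 CPM and of epithelium to at most 78.4 CPM. Of these markers of other cell types CDH1 (1 of 5 epithelial), PECAM1 and CDH5 (2 of 4 endothelial) and CD3E (1 of 4 blood) had 0 counts in all 14 libraries, EPCAM had 1 to 9 counts per library and PTPRC 0 to 3. Other markers were clearly expressed. TEK held 34.0 to 45.7 CPM and made up nearly all of the endothelial sum. CD68 held 43.0 to 60.8 CPM, nearly all of the blood sum, and KRT18 39.5 to 61.3 CPM, most of the epithelial sum. CPM is the usual depth-normalised count, here after TMM scaling, a normalisation that aligns the bulk of genes between libraries. In such bulk RNA a change in the number of expressing cells and in RNA per cell cannot be told apart.

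NME1 and NME2 are neighbours and close relatives, so their sequences decide whether reads can be assigned to each. The coding sequence of NME2 (456 bases) was set against the last 456 of the 531 coding bases of NME1, using the transcripts that GENCODE 29 pairs with the accessions of the table. The paralogs matched at 369 positions (80.9%) and differed at 87. The longest stretch shared without a mismatch had 23 bases, and it is shown in capitals with 12 bases on either side. It covers coding bases 298 to 320 of NME1 and 223 to 245 of NME2, counted from the A of the start codon.
NME1: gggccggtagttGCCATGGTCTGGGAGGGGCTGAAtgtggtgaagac
NME2: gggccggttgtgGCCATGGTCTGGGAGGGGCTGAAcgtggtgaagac
The table also has a row for the read-through transcript NME1-NME2 (NR_037149; hg19 chromosome 17, 49230897 to 49249105), which spans both genes on the same strand. Its counts were 78.4% to 80.5% of the sum of NME1 and NME2 in every library. Reads of the single genes and of the read-through transcript thus cannot be separated in this table, and the 3 rows are not independent. NME1 and NME2 themselves do not overlap on the chromosome. A read longer than 23 bases within the aligned coding sequences differs between them, though the read length is not given.

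Levels between genes were compared as CPM per kilobase of the transcript named in the table. The diphosphate kinases lay highest, NME2 (NM_002512) at 301 ± 19.1 and NME1 (NM_198175) at 173 ± 10.99 CPM per kilobase (mean ± SD over 14 libraries), with the caution on shared reads above. Next came DCTD, which turns dCMP into dUMP, at 55.7 ± 2.32, and CMPK1 at 52.0 ± 3.01. NT5C, which removes the phosphate from deoxynucleoside monophosphates, stood at 24.3 ± 1.54, and DCK at 19.7 ± 1.72. SLC29A1, the equilibrative transporter ENT1, stood at 8.41 ± 0.763, SAMHD1 at 8.02 ± 0.494, CDA at 2.76 ± 0.745 and SLC29A2, the transporter ENT2, at 0.123 ± 0.0686. In this order 3 pairs of neighbours overlapped in range, namely DCTD with CMPK1, NT5C with DCK and SLC29A1 with SAMHD1. Of the kinases of the 3 phosphorylation steps, DCK was thus the lowest per length and the NME genes the highest, in each of the 14 libraries. The order of all 10 genes held with GENCODE transcript lengths, although SAMHD1 then stood at 4.80 CPM per kilobase because its GENCODE transcript has 5298 bases against 3171 in the table.

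**Figure D1:**
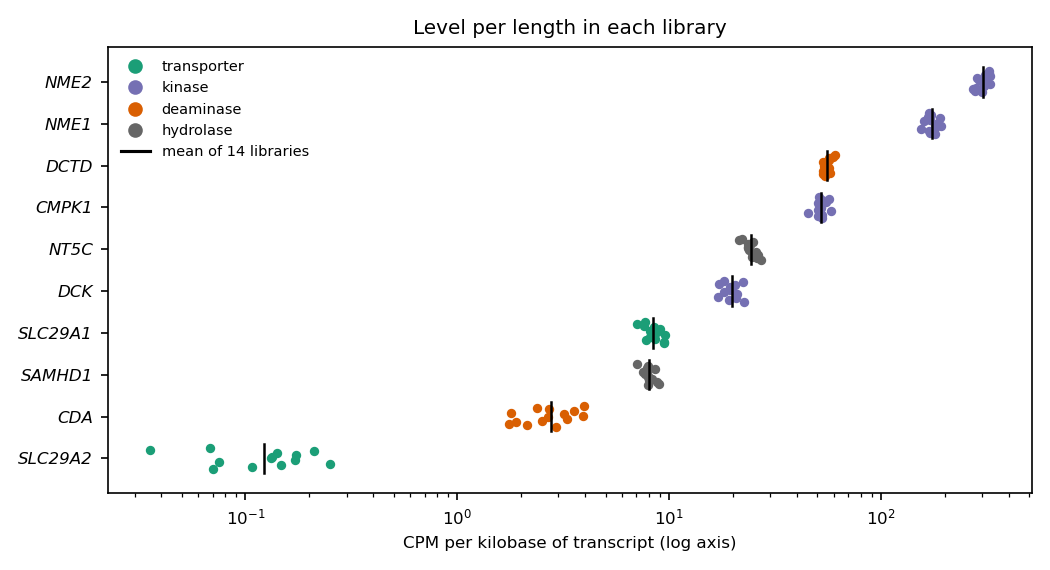
CPM per kilobase of transcript on a log axis for the 10 genes, each point a library (14 per gene) and the black bar their mean; the 1 library without SLC29A2 reads is not drawn. Points of NME2 lie at 271 to 326 and those of SAMHD1 at 7.06 to 8.90, while the low genes CDA (1.76 to 3.97) and SLC29A2 (no more than 0.251) spread more widely.

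Against untreated cells, edgeR called SLC29A1 lower at 96 h, a call that DESeq2 did not make. The other 8 tested genes did not pass the test at any time. At 24 h edgeR's quasi-likelihood test called 0 of the 9 genes at an adjusted p under 0.05, as it did 0% of all 13371 genes tested, and 1 of the 9 had an unadjusted p under 0.05 (3.42% of all genes). At 48 h it called 0 of 9 (0.00748% of all genes) and at 72 h 0 of 9 (0.179% of all genes), with 0 at an unadjusted p under 0.05 at both times (6.01% and 7.24% of all genes). DESeq2 and limma-voom also called 0 of them at these 3 times. At 96 h it called 1 of 9, in a background of 5.68% of all genes called and 2.11% called lower, and 3 of 9 had an unadjusted p under 0.05 (19.8% of all genes). DESeq2 called 0 and limma-voom 1 at 96 h. The median size of change of the 9 genes was 0.14 on the log2 scale at 96 h and 0.06 at 24 h, against 0.13 and 0.07 for all genes tested. At 24, 48 and 72 h the 95% intervals of 8 of the 9 genes lay within 0.5 of 0 on the log2 scale, the exception being CDA with its low counts. At 96 h those of 7 genes did, SLC29A1 and CDA being the exceptions.

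**Figure D2:**
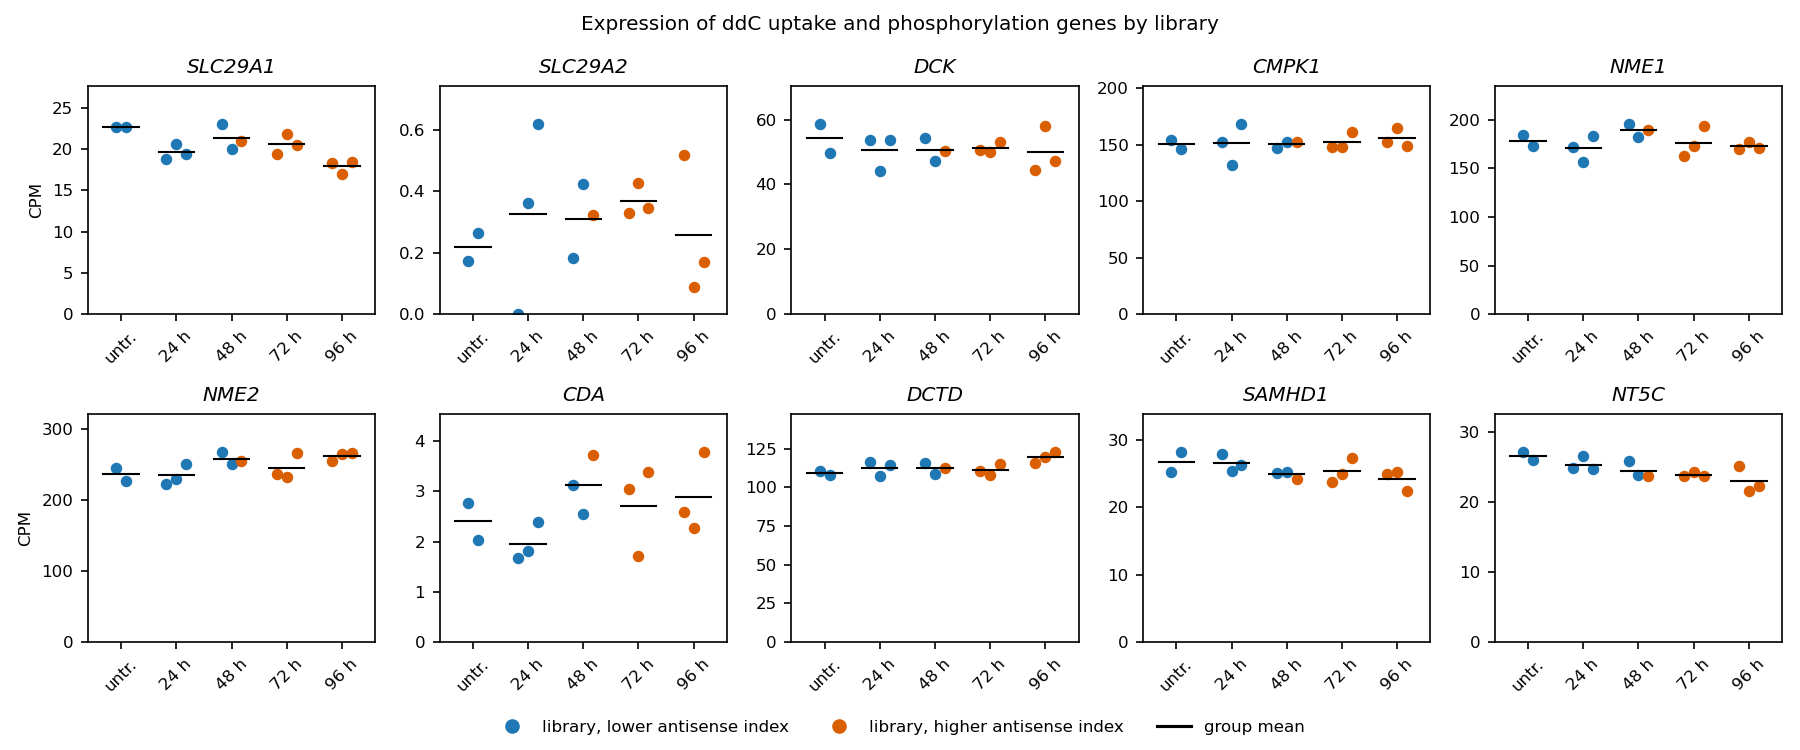
CPM of each of the 10 genes by group, each point a library, coloured by antisense index set, with the group mean as a bar and the axis from 0. SLC29A1 lies at 17.0 to 18.4 CPM in the 96 h libraries and at 22.6 and 22.7 CPM in the untreated ones, while the points of DCK and CMPK1 overlap at all times.

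SLC29A1 (NM_001304462; hg19 chromosome 6, 44187242 to 44201888, plus strand) encodes the transporter through which nucleosides equilibrate across the plasma membrane. The untreated libraries held 22.6 and 22.7 CPM (261 and 257 counts). At 24 h the libraries held 18.8, 20.6 and 19.4 CPM, and at 48 h 23.0, 20.0 and 21.0 CPM. At 72 h they held 19.4, 21.8 and 20.5 CPM, and at 96 h 18.3, 17.0 and 18.4 CPM. Libraries at 24, 72 and 96 h all lay below both untreated ones, and only 48 h overlapped them through replicate 1. Of all genes tested, 15.9% had libraries that did not overlap with untreated ones at 24 h, 24.2% at 72 h and 40.3% at 96 h. Group means were 22.6 ± 0.020 CPM for untreated cells (SD, n = 2) and 17.9 ± 0.811 CPM at 96 h (SD, n = 3). The SD of the untreated cells, from 2 libraries of 261 and 257 counts, lies below counting error. It does not measure how far untreated libraries vary. The log2 change at 96 h was -0.34 ± 0.10 (SE; 95% interval -0.54 to -0.14; edgeR adjusted p = 0.0411), a fall of 20.9% with an interval from -31.2% to -9.12%. At 24 h it was -0.21 ± 0.10 (adjusted p = 0.999), at 48 h -0.09 ± 0.10 (0.919) and at 72 h -0.14 ± 0.10 (0.822). The joint test of the 4 times did not call it (adjusted p = 0.233), nor did 96 h against 24 h (-0.13 ± 0.09, adjusted p = 0.528).

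The call of this fall depended on each library compared. Because the 2 untreated libraries lay at 22.6 and 22.7 CPM, leaving out either could hardly move its size. Without any 1 of the 5 libraries of that comparison the adjusted p rose above 0.05, to 0.178 and 0.240 without untreated replicates 1 and 2 and to 0.0826, 0.116 and 0.0790 without 96 h replicates 1, 2 and 3, with log2 changes of -0.36 to -0.30. It was 0.0998 by DESeq2, 0.0598 with no filter on low counts and 0.451 when the model included the library set (-0.30 ± 0.16). In the same 96 h libraries the summed fibroblast markers stood at 39580 to 43080 CPM against 33740 and 34610 CPM in untreated cells, and the summed epithelial markers at 71.4 to 78.4 CPM against 54.7 and 55.6 CPM. The fibroblast sum rose mainly through COL1A1 (group means 16900 and 21920 CPM) and COL1A2 (8879 and 11060 CPM). By edgeR these 2 genes, COL3A1 and THY1 passed the test, and VIM and PDGFRB did not (adjusted p = 0.745 and 0.411). That epithelial sum was nearly all KRT8, KRT18 and KRT19, since CDH1 had no counts and EPCAM 7 or 8 per 96 h library. KRT8 (0.55 ± 0.15, edgeR adjusted p = 0.032) and KRT18 (0.44 ± 0.09, 0.0065) also passed the test as higher, and KRT19 did not (0.24). The part of these shifts in the SLC29A1 result was not tested. With a nuclear RNA score as covariate, averaged in log2 CPM over KCNQ1OT1, MALAT1, MEG3 and NEAT1, the change was -0.34 ± 0.10 (edgeR adjusted p = 0.0132). Without the score it was also -0.34 ± 0.10. The adjustment runs over all genes, of which 1849 were called with the score and 759 without it.

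SLC29A2 (NR_125343; hg19 chromosome 11, 66129992 to 66139291, minus strand) was close to the detection limit. Its 14 libraries held 49 counts in all. The untreated libraries had 2 and 3 counts, those at 24 h 0, 4 and 7, at 48 h 2, 5 and 4, at 72 h 4, 5 and 4, and at 96 h 6, 1 and 2. All treated groups overlapped the untreated libraries except 72 h, whose counts were 4 or more, and no difference was detectable at this depth. The count of 0 in 24 h replicate 1 allows up to 0.314 CPM (3 counts, counting error only). The table counts this gene on a noncoding transcript.

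DCK (NM_000788; hg19 chromosome 4, 71859265 to 71896629, plus strand), which commits ddC to the phosphorylated pool, varied more between libraries of a group than between times. Untreated libraries held 58.6 and 49.8 CPM and those at 24 h 53.8, 44.1 and 53.8 CPM. Libraries at 48 h held 54.3, 47.2 and 50.3 CPM, at 72 h 50.6, 50.1 and 53.1 CPM, and at 96 h 44.5, 58.0 and 47.2 CPM. The highest and the lowest of these came from untreated cells and from 24 h, and at each time the values overlapped those of untreated cells. The log2 change was -0.10 ± 0.11 at 24 h, -0.10 ± 0.11 at 48 h, -0.08 ± 0.11 at 72 h and -0.12 ± 0.11 at 96 h, where the interval in percent ran from -21.5% to 7.77% (adjusted p = 0.589). The SD within groups was 0.14 on the log2 scale, against a span of group means of 0.12. Across the 14 libraries, the expressed genes most like DCK in log2 CPM, of 11988 compared, were EIF2S1 (Pearson r = 0.902), TEX10 (0.900) and PTPN11 (0.890). For SLC29A1 they were EIF3B (0.897), PGAM5 (0.884) and CCDC86 (0.878). These correlations share libraries and depth and are descriptions.

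CMPK1 (NM_016308; hg19 chromosome 1, 47799469 to 47844511, plus strand), which adds the second phosphate, had the smallest span of group means of the 9 genes, 0.05 on the log2 scale. It stood at 150.2 ± 5.34 CPM in untreated cells (SD, n = 2) and at 155.5 ± 8.56 CPM at 96 h (SD, n = 3). The log2 change at 96 h was 0.05 ± 0.08 (adjusted p = 0.787), with an interval in percent from -7.65% to 16.1%. Its lowest library, 132 CPM, and its highest, 168 CPM, both came from 24 h.

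For the last phosphate, NME2 (hg19 chromosome 17, 49243633 to 49249105, plus strand) stood at 244 and 227 CPM in untreated cells. It held 223, 230.0 and 250.4 CPM at 24 h, 268, 251 and 254 CPM at 48 h, and 237, 232 and 266 CPM at 72 h. At 96 h it held 254, 265 and 266 CPM. All libraries at 48 h and at 96 h lay above both untreated ones, in backgrounds of 23.7% and 40.3% of all genes without overlap, and those at 24 and 72 h overlapped them. The log2 change at 96 h was 0.15 ± 0.07 (95% interval 0.01 to 0.29), with an unadjusted p of 0.0381 and an edgeR adjusted p of 0.219. Against 24 h it was 0.16 ± 0.06 (adjusted p = 0.189), and this difference passed the test once the nuclear RNA score was a covariate (0.13 ± 0.04, adjusted p = 0.0312). NME1 (hg19 chromosome 17, 49230920 to 49239450, plus strand) stood at 178 ± 7.85 CPM in untreated cells and at 172 ± 3.69 CPM at 96 h (-0.05 ± 0.07, adjusted p = 0.768). Counts of NME2 were 1.30 to 1.55 times those of NME1. Summed to 1 feature, both genes gave a log2 change of 0.07 ± 0.07 at 96 h (adjusted p = 0.624).

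**Figure D3:**
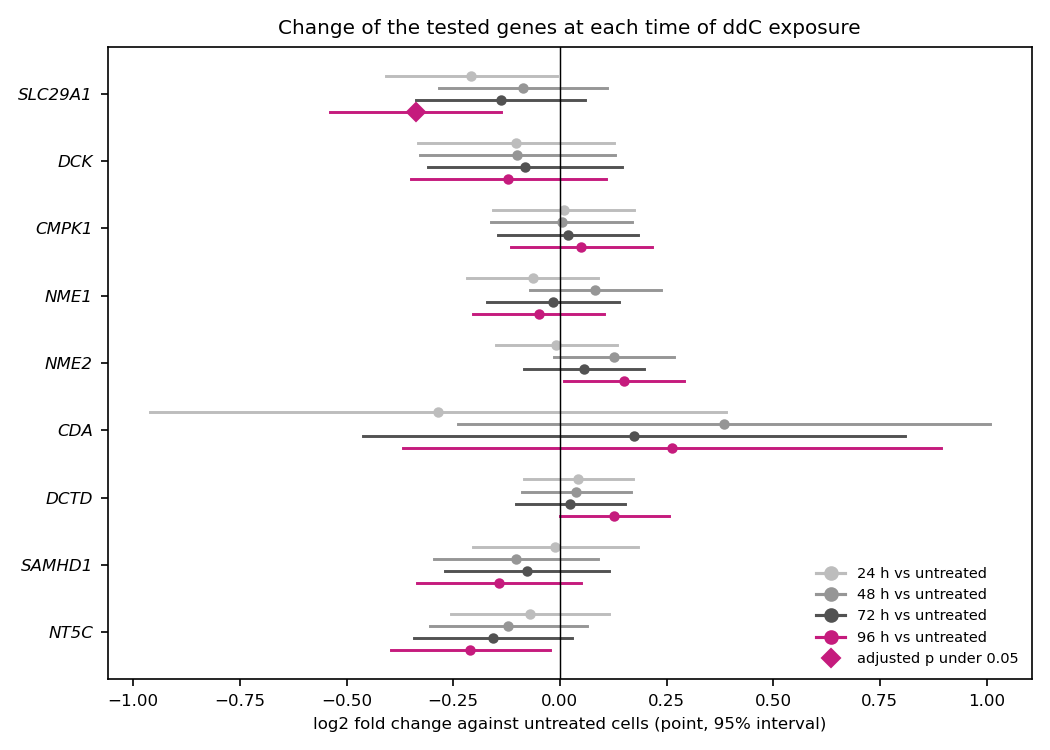
Log2 fold change against untreated cells at each of the 4 times for the 9 tested genes, as point and 95% interval, with a diamond where the adjusted p was under 0.05. The diamond of SLC29A1 at 96 h (-0.34) is the only one, and the intervals of CDA are the widest.

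Of the deaminases, CDA (NM_001785; hg19 chromosome 1, 20915444 to 20945400, plus strand), which converts cytidine and deoxycytidine to their uridine forms, had only 16 to 46 counts per library. Untreated libraries held 2.78 and 2.03 CPM, those at 24 h 1.68, 1.81 and 2.39 CPM and those at 96 h 2.59, 2.26 and 3.79 CPM. The groups overlapped. Its log2 change ran from -0.29 ± 0.32 at 24 h to 0.38 ± 0.30 at 48 h and stood at 0.26 ± 0.30 at 96 h (adjusted p = 0.687), with an interval from -22.5% to 85.7%. Changes of CDA within that interval were not excluded. DCTD (NM_001012732; hg19 chromosome 4, 183811244 to 183838630, minus strand) held 111 and 108.1 CPM in untreated cells and 116, 120 and 123 CPM at 96 h, where the libraries did not overlap. At this time 40.3% of all genes had libraries without overlap. The change of DCTD was 0.13 ± 0.06 on the log2 scale (edgeR adjusted p = 0.253). At 24, 48 and 72 h DCTD lay between 107.6 and 117 CPM.

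Of the hydrolases, SAMHD1 (NM_015474; hg19 chromosome 20, 35520227 to 35580246, minus strand) stood at 26.7 ± 2.17 CPM in untreated cells (SD, n = 2) and at 24.2 ± 1.55 CPM at 96 h (SD, n = 3). Its log2 change was -0.14 ± 0.09 (edgeR adjusted p = 0.418). The highest of its 96 h libraries (24.98, 25.2 and 22.4 CPM) reached the lower of the untreated ones (25.2 and 28.2 CPM). NT5C (NR_045513; hg19 chromosome 17, 73126320 to 73127890, minus strand) held 27.1 and 26.0 CPM in untreated cells. It held 24.8, 26.5 and 24.6 CPM at 24 h, 25.8, 23.9 and 23.7 CPM at 48 h, 23.6, 24.2 and 23.7 CPM at 72 h, and 25.1, 21.6 and 22.3 CPM at 96 h. All libraries from 48 h on lay below both untreated ones. Of all genes, 23.7% had libraries without overlap on one side or the other at 48 h, 24.2% at 72 h and 40.3% at 96 h. The log2 change was -0.12 ± 0.09 at 48 h, -0.16 ± 0.09 at 72 h and -0.21 ± 0.09 at 96 h (95% interval -0.40 to -0.02; unadjusted p = 0.0285, adjusted p = 0.187), and 0 of these passed the test. NT5C overlaps ARMC7 on the opposite strand, whose 14 libraries together held 1302 counts against 3918 for NT5C. Like those of SLC29A2, the counts of NT5C are for a noncoding transcript.

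At 96 h, 4 of the 9 genes had libraries that did not overlap with untreated ones, DCTD and NME2 above them and NT5C and SLC29A1 below, in a background of 40.3% of all genes. Within treated cells alone, 96 h against 24 h called 0 of the 9 genes (3.2% of all genes), with 1 at an unadjusted p under 0.05, NME2 (15.2% of all genes). Libraries of these times did not overlap for 3 of the 9, NME2 higher at 96 h and SAMHD1 and SLC29A1 lower, in a background of 19% of all genes. The slope over 24 to 96 h called 0 (3.02% of all genes) with 0 at an unadjusted p under 0.05 (14.6% of all genes), and DESeq2 and limma-voom called 0 in both. The joint test of all 4 times against untreated cells called 0 of 9 (3.25% of all genes), and DESeq2 and limma-voom also called 0. SLC29A1 alone had an unadjusted p under 0.05 in it, as 13.2% of all genes did.

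The other genes that move, phosphorylate or degrade nucleosides and nucleotides were taken as 9 lists of 62 genes, all in the table, of which 52 were tested. At 24, 48 and 72 h, 0 of the 52 passed edgeR's test, with 1, 2 and 4 at an unadjusted p under 0.05 (3.42%, 6.01% and 7.24% of all genes). At 96 h 2 were higher and 2 lower, where 3.57% and 2.11% of all genes were. Of the 52, 17 had an unadjusted p under 0.05, a larger share than the 19.8% of all genes. These included 5 of 16 tested kinases and 4 of 5 genes that supply dCTP. The lists were chosen by known role with earlier results of these data known, and no test of the lists as sets was run. These shares are therefore descriptions only. The median log2 change of the 52 was -0.03, against -0.004 for all genes tested. Those that passed were AK4, RRM2B, RRM2 and ABCG2.

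AK4, a mitochondrial adenylate kinase, was the 1 of 16 tested kinases that passed the adjusted test, and it rose. It held 6.42 and 5.20 CPM in untreated cells and 10.2, 11.8 and 11.3 CPM at 96 h, a log2 change of 0.93 ± 0.16 (adjusted p = 7.67e-04). At an unadjusted p under 0.05 (19.8% of all genes), NME4, NME3 and GUK1 were also higher and NME6 lower. They did not pass (edgeR adjusted p = 0.0943, 0.186, 0.186 and 0.0699, in that order). TK1, the cytosolic thymidine kinase of dividing cells, stood at 0.09 ± 0.08 (adjusted p = 0.573) and TK2, its mitochondrial counterpart that also phosphorylates deoxycytidine, at -0.04 ± 0.09 (adjusted p = 0.877). Among 5 genes that supply the competing dCTP, the p53-inducible ribonucleotide reductase subunit RRM2B rose and the S-phase subunit RRM2 fell. RRM2B went from 51.2 and 42.3 CPM to 57.0, 63.4 and 55.6 CPM at 96 h (0.33 ± 0.09, adjusted p = 0.0402), and RRM2 from 306.5 and 318 CPM to 255, 271 and 259 CPM (-0.26 ± 0.07, adjusted p = 0.0258). Neither gene overlapped untreated libraries at 96 h, like 40.3% of all genes. Among 5 tested efflux pumps, ABCG2, an export pump of drugs and nucleoside monophosphates, fell from 5.38 and 5.11 CPM to 3.11, 3.74 and 2.19 CPM (-0.80 ± 0.22, adjusted p = 0.0330), and ABCC5, another nucleotide exporter, stood at -0.26 ± 0.26 (adjusted p = 0.637). A term for the library set ended the calls of all 4 genes, with wider errors. The log2 changes were then 0.83 ± 0.26 for AK4 (adjusted p = 0.158), -0.86 ± 0.37 for ABCG2 (0.303), -0.27 ± 0.12 for RRM2 (0.312) and 0.23 ± 0.16 for RRM2B (0.580). Leaving out 1 library ended the call of RRM2B without untreated replicate 2 (log2 change 0.20, adjusted p = 0.491), 72 h replicate 1 (0.0528) or 96 h replicates 1, 2 or 3 (0.0728, 0.136 and 0.0595), and without untreated replicate 1 the change was 0.47 (0.0334). It ended those of RRM2 and ABCG2 without untreated replicate 1 (0.0954 and 0.179), untreated replicate 2 (0.244 and 0.172), 96 h replicate 1 (0.0964 and 0.0771) or 96 h replicate 3 (0.0802 and 0.156), and DESeq2 did not call ABCG2 (adjusted p = 0.0746).

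In the remaining lists 0 genes passed at 96 h by edgeR. Of 3 tested transporters the plasma membrane transporter SLC29A4 had an unadjusted p under 0.05, and it was higher (0.44 ± 0.18, edgeR adjusted p = 0.148). An unadjusted p under 0.05 was also found for 3 of 10 nucleotidases and nucleotide hydrolases and 3 of 6 deaminases, phosphorylases and aldolase. Each of these lists had such genes in both directions. Of all genes, 19.8% had such a p. Neither the 2 mitochondrial pyrimidine nucleotide carriers, the 3 tested genes that make CDP-lipid intermediates from CTP nor the 2 subunits of DNA polymerase gamma had any. The concentrative transporters SLC28A1 and SLC28A2 had 0 counts in all 14 libraries, which allows up to 0.0187 CPM (3 counts over all libraries), and SLC28A3 held 1.09 to 2.59 CPM.

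**Figure D4:**
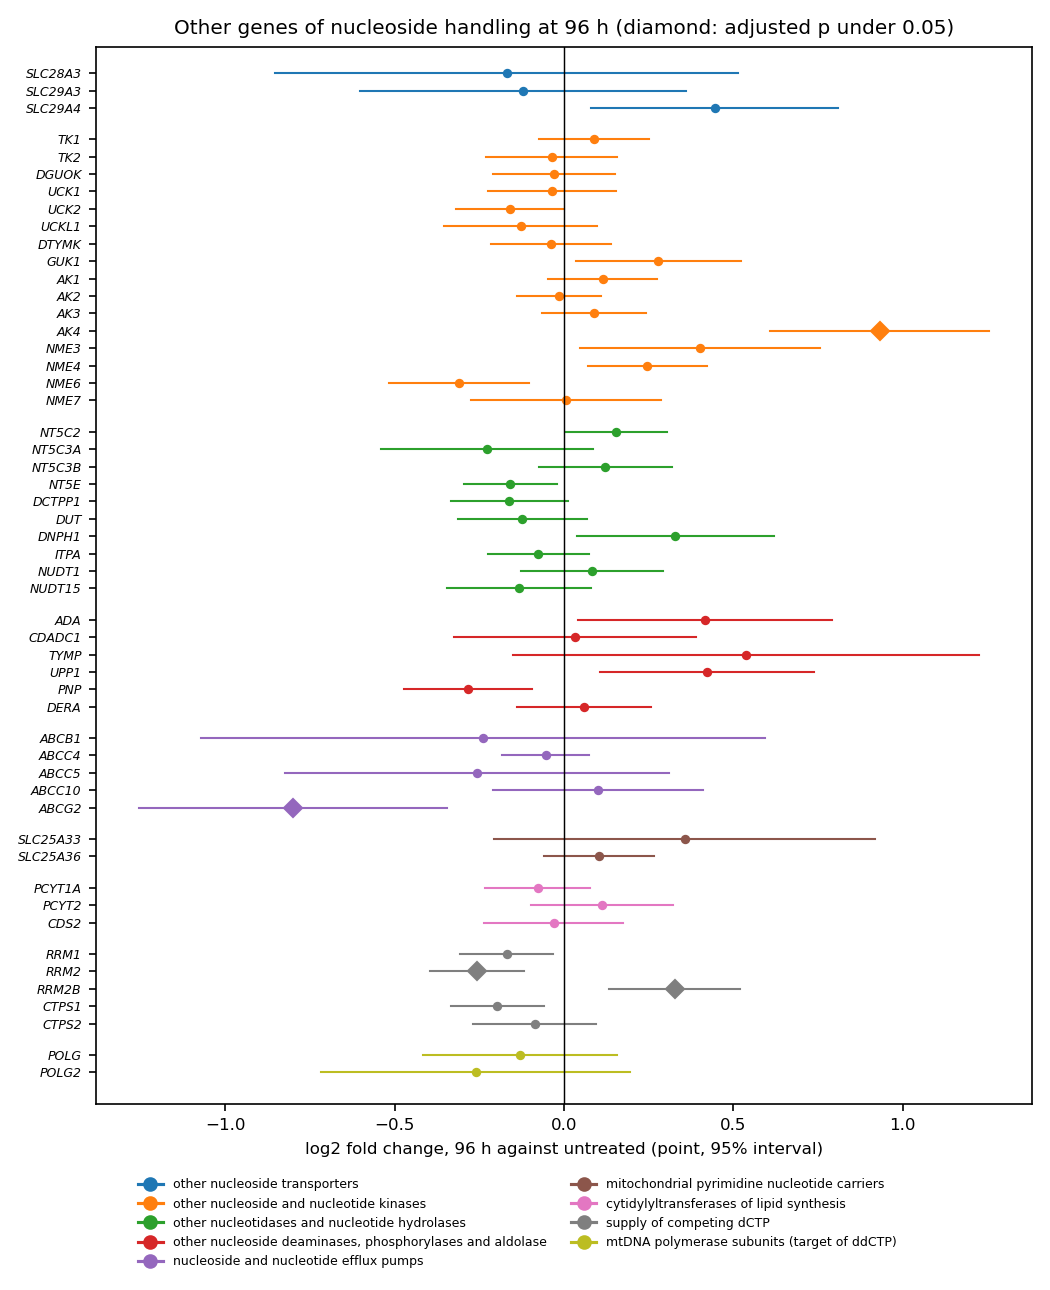
Log2 fold change at 96 h against untreated cells with 95% interval for the 52 tested genes of the 9 lists, coloured by list, with diamonds where the adjusted p was under 0.05. AK4 (0.93) and RRM2B (0.33) lie to the right and ABCG2 (-0.80) and RRM2 (-0.26) to the left, while both subunits of DNA polymerase gamma have intervals that include 0.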

How the data were processed

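The table the authors deposited holds raw counts per gene, with 1 transcript row per gene, for 14 libraries. The submitters' processing notes name STAR 2.5.3a, HOMER and the build hg19; strand setting, filters and read length are not given in the sources used here. Transcript lengths are those of the deposited table, a value of no sample and of other unit than counts. The labels name a stranded mRNA kit. The 10 genes and the 9 lists were chosen with earlier results of these data known, by known role. All 10 genes are named, and of the lists those called at 96 h against untreated cells or 24 h, plus TK1, TK2, RRM2B and ABCC5. SLC28A1, SLC28A2, SLC28A3, SLC29A4, CMPK2, NT5M, DGUOK, GUK1, NME3, NME4, NME6 and NT5E fall outside this rule and were named after their values were seen.

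Tests were edgeR's quasi-likelihood tests (version 4.0.16, R 4.3.3), fitted robustly with a mean for each group over all 14 libraries, or over the 12 treated ones for the slope. Libraries were scaled by TMM (0.971 to 1.02; CPM is the count in a library times 1000000 over its TMM-scaled total), and filterByExpr removed low genes (count at least 10, total at least 15). P-values were adjusted by Benjamini-Hochberg over all genes tested in a comparison and called under 0.05, two-sided. Each SE was derived from the log2 change and its F statistic, and 95% intervals from the SE. Scripts were tested on simulated data. Alternatives were DESeq2 1.42.0, limma-voom (limma 3.58.1), DESeq2 size factors in edgeR, no filter, a replicate block, fits of the compared groups alone, each library left out in turn, the nuclear RNA score, a term for the library set and each set alone. Sums of NME1 with NME2 alone, and the alternatives for list genes and for SLC29A1 at 24 and 48 h, were added after the data were seen. Antisense pairs joined genes of at least 200 CPM with overlapping opposite-strand genes under 0.5% of their level, and the sets were parted at the largest gap. Likeness used a prior count of 3 and genes of average log2 CPM of at least 1. Within groups, 0 pairs of libraries agreed within counting noise.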

Additional observations from a re-analysis of the deposited data

Results flagged for a closer look

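AK4, a mitochondrial adenylate kinase outside the 10 genes, changed to a different degree at 96 h than at 24 h of ddC. The difference between these times was 0.79 ± 0.14 on the log2 scale (SE; edgeR adjusted p = 0.00129). Libraries held 5.45, 7.32 and 6.45 CPM at 24 h and 10.2, 11.8 and 11.3 CPM at 96 h. It kept its call without any 1 library (adjusted p at most 0.0130). A term for the library set moved it to 0.68 (adjusted p = 0.337).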

How the results depend on the processing

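Of 828 values recomputed for 37 results, 768 kept their direction and side of the threshold, 28 lost a call, 1 gained one and 31 changed sign. The 1 gene of the 10 called at 96 h, SLC29A1, became 0 genes with DESeq2, no filter on low counts, the replicate block or the library set as a term, and 0 to 1 genes when each library was left out. At 96 h against 24 h the nuclear RNA score raised the count from 0 to 1. The replicate block gave SLC29A1 an adjusted p of 0.0692 at 96 h. Same-numbered libraries did not deviate together (r from -0.358 to 0.612 over 26 pairs), and 6 of 14 libraries correlated best with their own number, so the numbers were not taken as pairs. Over all genes at 96 h, 759 were called, against 1646 with only the compared groups, 1849 with the nuclear score, 121 with the library set, and 265, 174, 425 and 431 without untreated replicates 1 and 2 and 96 h replicates 1 and 3. At 96 h against 24 h 428 were called, against 1086 with the nuclear score, 37 with the library set, and 259, 223 and 262 without 24 h replicate 1 and 96 h replicates 1 and 3. The slope's 398 became 939 with the nuclear score, 68 with the library set, 234 in the higher set alone, and 157, 249 and 203 without 96 h replicates 1, 2 and 3. The joint test's 435 became 1369 with the nuclear score, 91 with the library set, 283 without untreated replicate 2, and 223, 287 and 236 without 96 h replicates 1, 2 and 3. At 72 h 24 became 54 with DESeq2, 47 with no filter, 7 with only the compared groups, 248 with the nuclear score, 0 with the library set, and 2, 1, 4 and 6 without untreated replicates 1 and 2 and 72 h replicates 1 and 3. At 48 h 1 became 34 with the nuclear score, 3 with no filter, 2 with the library set and 0 to 2 when each library was left out. The cause was not tested.

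All sign changes were of uncalled values. At 72 h CMPK1 (0.02) became -0.00701 with the replicate block and -0.00847 with the library set, and CDA (0.17) -0.0123 and -0.222. NME1 (-0.02) became 0.0118 with the nuclear score. The sum of NME1 and NME2 stood at 0.0257, and at 0.0325 with the read-through row too. At 96 h CDA (0.26) became -0.132 with the library set, and the same sums stood at 0.0675 and 0.0746, where NME1 alone was at -0.05. These sums were counted as sign changes of NME1, but they include NME2 and are another quantity. At 96 h against 24 h NME1 became -0.0118 with the nuclear score. When each library was left out, 72 h values ran from -0.196 to 0.036 for DCK, -0.0229 to 0.0512 for CMPK1, -0.088 to 0.034 for NME1, -0.00667 to 0.105 for NME2, -0.0352 to 0.417 for CDA, -0.00257 to 0.0453 for DCTD and -0.162 to 0.00672 for SAMHD1. For 96 h against 24 h they ran from -0.137 to 0.0576 for DCK, -0.0459 to 0.123 for CMPK1 and -0.0428 to 0.0657 for NME1, and at 96 h from -0.13 to 0.0579 for TK2. Counts limit CDA and SLC29A2 most.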

Other observations

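Mitochondria have enzymes of their own for several of these steps, and their transcripts differed widely in level. CMPK2, the mitochondrial UMP/CMP kinase, had 12 counts in all 14 libraries together, at most 2 in any of them and 0 in 5. NT5M, the mitochondrial deoxyribonucleotidase, had 42 counts in all, with 0 to 7 per library. DGUOK, the mitochondrial deoxyguanosine kinase, stood at 50.4 CPM per kilobase (mean of 14 libraries, range 44.9 to 56.8), TK2 at 5.13 (4.51 to 5.61) and NME4, the nucleoside diphosphate kinase of mitochondria, at 129 (112 to 150.5). NT5E, the cell surface nucleotidase CD73, stood at 199 CPM per kilobase (179 to 219), above DCTD and CMPK1 in every library. These genes were picked after their values were seen.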
